A study of Drosophila melanogaster with 6 samples.

Results

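The genes examined here were 10 of the 13945 protein-coding genes annotated on the main chromosome arms of Drosophila melanogaster, picked by name as central components of the Toll and Imd immune pathways. They comprised Tl, tub, pll, cact and Dif of the Toll pathway and PGRP-LC, imd, Tak1, key and Rel of the Imd pathway. Chromatin was immunoprecipitated with an anti-Flag antibody from S2R+ cells, an embryo-derived Drosophila line, that expressed Flag-tagged Dwg, an insulator protein also known as Zw5. The series held 2 Flag-Dwg ChIP libraries, 2 IgG control libraries and 2 input libraries, and all came from cells carrying the tagged protein. Dwg positions were read from 2 deposited lists of peak summits, the base at which a peak is highest, one with the IgG control as background (10950 summits) and one with input (12971 summits). The score of a summit was −log10 of its q-value, so a higher score means stronger statistical support in that list and not more protein on the DNA. Both lists used the same ChIP libraries and carried no value per library, so they are not replicates, the values have no replicate error and library depth is unknown. A summit was assigned to a gene when it lay inside the gene or within 1000 bp of it, whichever gene's transcript start was nearest.

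Toll and Imd are the pathways through which flies sense microbes and switch on antimicrobial peptide genes. In the Toll pathway, the receptor Toll (Tl) signals through the adaptor Tube (tub) and the kinase Pelle (pll) to remove the inhibitor Cactus (cact), which frees the NF-κB factors Dif and Dorsal. In the Imd pathway, the peptidoglycan receptor PGRP-LC signals through the adaptor Imd, the kinase Tak1 and the IKK complex, which contains Kenny (key), to the NF-κB factor Relish (Rel).

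Dwg summits fell both at transcript starts and in introns of these genes, and the DNA under the summits that carry this pattern is given here first. The sequences are from the dm6 genome and are written on the strand of the named gene. Capitals mark matches, on either strand, to 6 short motifs described further on. Each window reached at most 50 bp beyond its summit in either direction, and windows were shortened so that no more than 30 bases of an untranslated region were shown. The start-proximal windows were chr3R:4387683-4387771 (plus strand) for tub, chr3R:27253447-27253476 (minus strand) for pll, chr2L:16326091-16326120 (minus strand) for cact, chr2L:17428170-17428265 (minus strand) for Dif and chr3R:9047569-9047598 (minus strand) for Rel.
tub start: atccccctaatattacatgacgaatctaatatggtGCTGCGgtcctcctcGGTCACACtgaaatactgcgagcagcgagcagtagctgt
pll upstream: gcagtgtggccacctgcggggcacttgaaa
cact start: atttgtccgcctcgccgtcatacgcatttc
Dif internal start: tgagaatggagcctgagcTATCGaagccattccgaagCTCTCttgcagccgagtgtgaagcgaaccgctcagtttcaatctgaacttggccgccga
Rel start: cagataatttcccatccgccgaacatcggg
The windows away from any transcript start were chr3R:26813470-26813570 (plus strand) for Tl, chr2L:16315157-16315257 (minus strand) for cact, chrX:20519815-20519915 (minus strand) for Tak1 and chr3R:9043836-9043936 (minus strand) for Rel.
Tl intron: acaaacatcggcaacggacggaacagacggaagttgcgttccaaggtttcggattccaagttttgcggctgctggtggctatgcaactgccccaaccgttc
cact intron: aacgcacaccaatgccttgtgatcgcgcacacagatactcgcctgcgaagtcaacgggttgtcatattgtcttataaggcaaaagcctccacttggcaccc
Tak1 intron: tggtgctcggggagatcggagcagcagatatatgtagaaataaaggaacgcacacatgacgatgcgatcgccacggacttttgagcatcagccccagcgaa
Rel downstream: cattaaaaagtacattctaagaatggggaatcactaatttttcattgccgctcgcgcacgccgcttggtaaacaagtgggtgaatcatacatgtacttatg

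Against the IgG control, 9 of the 10 genes had at least 1 summit, where 52.1% of all protein-coding genes did. The exception was PGRP-LC. The other 9 genes held 25 summits, between 1 (Tl and pll) and 6 (imd) each. Against input, the same 9 genes had a summit, where 55.5% of all genes did, with 28 summits in total. The share of genes with a summit rose with gene length, from 27.5% in the shortest length class. Among genes of similar length, the share with a summit was 56.2% for the length class of tub, pll and key, 64.3% for that of imd and Rel and 65.2% for that of Tl, cact, Dif, PGRP-LC and Tak1. With 10 genes chosen by name, the count of 9 was read as a description and was not tested.

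**Figure D1:**
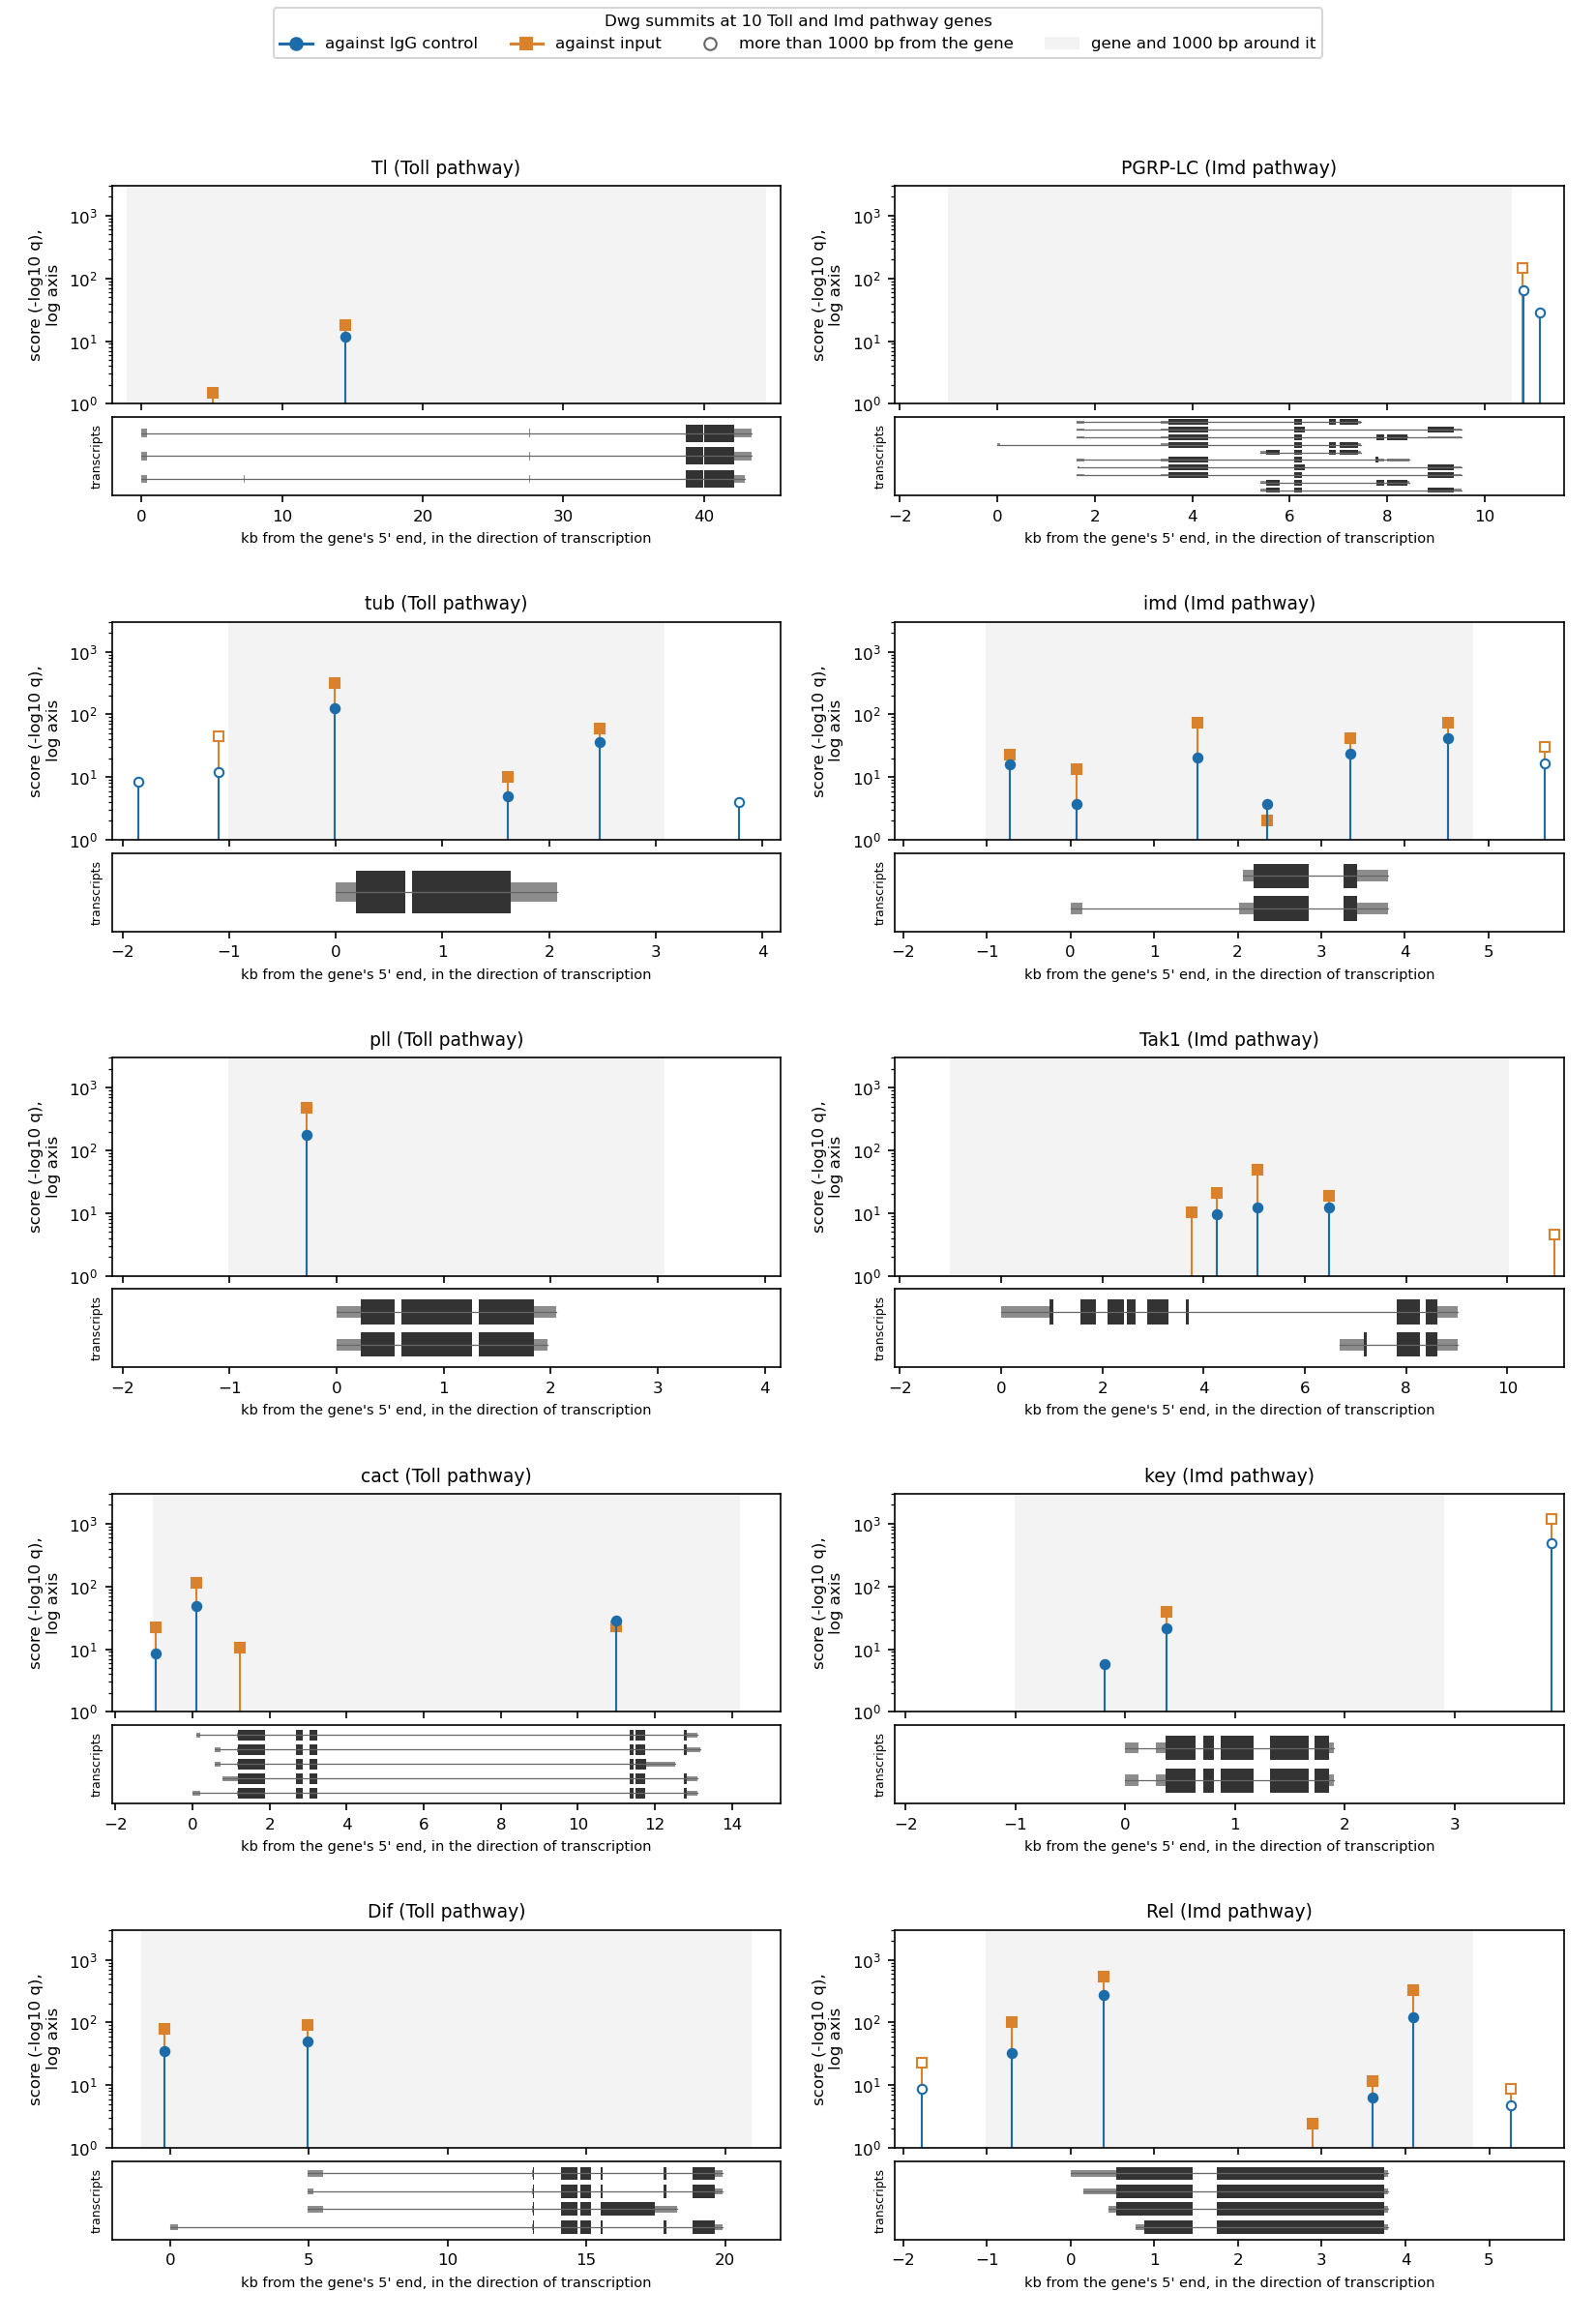
Dwg summits at each of the 10 genes, drawn by distance in kb from the gene's 5′ end in the direction of transcription (horizontal axis) and by score, −log10 of the q-value, on a log axis (vertical axis). Circles are summits against the IgG control, squares are summits against input, and open symbols lie more than 1000 bp from the gene; the transcripts are drawn under each plot, with coding exons as tall bars. PGRP-LC has no filled symbol, and the 3 summits of Tak1 against the IgG control all lie in 1 intron.

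In total, 8 of the 10 genes had a summit within 500 bp of at least 1 of their own transcript starts in each list, compared with 40.1% of all genes against the IgG control and 43.2% against input. The genes without one were PGRP-LC and Tl. At imd the summits this near to a start scored only 3.7 and 3.78 against the IgG control. The pll summit was nearer to a start of the neighbor TfIIA-L. Genes with more starts have more chances to be counted, and the shares were not adjusted for this. The 10 genes have 22 distinct transcript starts, of which 15 had a summit within 500 bp against the IgG control and 16 against input. These starts are not separate sites: a single summit was within 500 bp of all 4 Rel starts, and another of more than 1 cact start. The corresponding share over the starts of all genes is not given here, so these counts are a description only. An intron held a summit in 5 genes (Tl, cact, Dif, imd and Tak1) in each list, whereas 12.5% of all genes had an intronic summit against the IgG control and 14.2% against input. Those shares are not matched for gene or intron length. Of the 5 genes, Tl, cact, Dif and Tak1 are in the longest length class and imd is in the next. Of the 25 summits, 7 were in an intron, 5 in a coding exon, 3 in a 5′ untranslated region, 7 upstream of the gene and 3 downstream of it.

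Proximity to the gene did not mean that the gene's own start was the nearest. In 7 of the 9 genes the highest summit lay nearest to the gene's own start in each list, where 57.5% of all genes with a summit showed this against the IgG control and 58.4% against input. The exceptions were pll and imd. Nearest did not always mean near: the highest summit was 14479 bp from the own start at Tl and 1617 bp at Tak1. Counting every summit against the IgG control, 15 of 25 were nearest to a start of the gene itself and 10 to a start of another gene. A start of any gene lay within 100 bp of 10 of the 25 summits, and it belonged to the gene itself for 5 and to a neighbor for the other 5. Over all summits against the IgG control, 24.3% lay within 100 bp of a start.

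The scores at these genes ran widely. Against the IgG control they ran from 3.7 at imd to 273 at Rel, with a median of 21.3 over the 25 summits, where the median of all summits was 12.9. The highest summit per gene had a median score of 49.4 over the 9 genes, compared with 29.7 over all genes with a summit. Against input the corresponding medians were 92.2 and 59.7. Rel, pll and tub held the 3 highest start-proximal scores, and the highest scores of Tl and Tak1 were below the median of all summits against the IgG control.

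**Figure D2:**
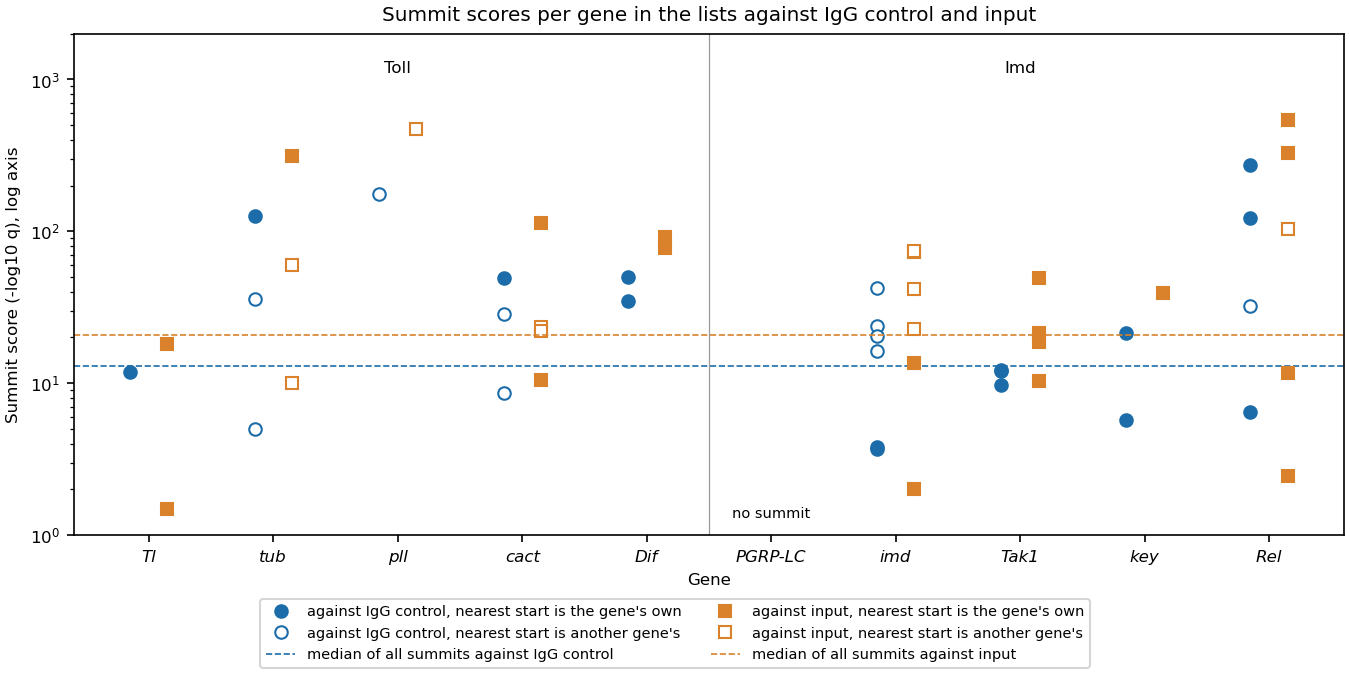
Score of every summit at the 10 genes, −log10 of the q-value on a log axis, with 1 column per gene; circles are summits against the IgG control and squares summits against input. Filled symbols lie nearest to the gene's own transcript start and open symbols nearest to another gene's, and dashed lines are the medians of all summits, 12.9 and 20.9; the only summit of pll is open, and Rel reaches the highest scores, 273 and 537.

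The receptor genes of both pathways were the ones without a summit near a start. Tl, which encodes the Toll receptor, lies at chr3R:26799041-26842403 on the plus strand and has 1 transcript start. Its single summit against the IgG control, at chr3R:26813520, was 14479 bp downstream of that start, inside a first intron of 27095 bp that is divided by a small additional exon in 1 of the 3 transcripts. The score was 11.8 (rank 5813) against the IgG control and 18.2 (rank 7013) against input, close to the middle of each list. The list against input held 1 more Tl summit, at chr3R:26804125 in the same intron, with a score of 1.48 that is near the lower limit of the list. No summit lay within 500 bp of the Tl start in either list.

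PGRP-LC, the membrane receptor for bacterial peptidoglycan, had no summit in either list. The gene lies at chr3L:9338810-9348336 on the plus strand and has 4 transcript starts, 10 transcripts and 13 distinct introns. The nearest summit downstream was 1258 bp beyond the gene, at chr3L:9349594, with a score of 64.3 (rank 1362) against the IgG control. It stood 15 bp upstream of the start of PGRP-LF, which encodes an inhibitory receptor of the same family, and its counterpart against input, at chr3L:9349592, scored 144. Upstream, the nearest summit against the IgG control was 132927 bp away, in an intron of Slc45-1. The list against input instead held a summit of score 20.3 at chr3L:9335862, in an intron of PGRP-LA and 2948 bp from PGRP-LC. The 4 PGRP-LC starts were thus 5394 to 10784 bp from the nearest summit against the IgG control.

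The adaptors tub and imd differed in where their strongest summits lay. At tub (chr3R:4387742-4389813, plus strand), whose product links Toll to Pelle, the highest summit was at chr3R:4387733, 9 bp upstream of its only start. This summit scored 127 (rank 568) against the IgG control and 314 (rank 557) against input. A weak summit of 5.01 (10.1 against input) lay in a coding exon, 1608 bp downstream of the start. The summit 399 bp past the gene's end scored 35.6 (60 against input), and it was 154 bp upstream of the start of the next gene on the same strand, CG14646.

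At imd (chr2R:18409796-18413599, minus strand), which encodes the death-domain adaptor of the pathway, 6 summits were found in each list, all shared. In comparison, 2.49% of protein-coding genes of all lengths held 6 or more summits against the IgG control and 3.28% against input. The highest score against the IgG control, 42.2 (73.5 against input), was 712 bp past the end of imd and 36 bp inside GstE9, a glutathione S-transferase gene on the opposite strand. A summit in the coding part of imd, 1280 bp downstream of its internal start, scored 23.7 (42 against input). Starts of the opposite-strand gene Dp1, which encodes an RNA-binding protein, lay within 54 bp and 88 bp of a further pair of summits. These scored 20.6 and 16.2 against the IgG control and 74.2 and 22.9 against input, so that the highest imd summit was a different one in each list. The summits nearest to the starts of imd itself were the weakest ones. The summit 70 bp downstream of the imd-RB start scored 3.7 (13.6 against input), and that 281 bp downstream of the imd-RA start scored 3.78 (2.01 against input).

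The kinase genes pll and Tak1 showed opposite arrangements. At pll (chr3R:27251131-27253182, minus strand), which encodes the kinase downstream of Toll, the sole summit was at chr3R:27253462 in both lists, 280 bp upstream of the start that both transcripts share. It scored 175 (rank 388) against the IgG control and 472 (rank 320) against input. The same base is 32 bp inside the 5′ untranslated region of TfIIA-L, a gene for a subunit of a general transcription factor that is transcribed in the opposite direction. TfIIA-L (chr3R:27251112-27256463) overlaps the whole of pll: the start it has nearest to the summit is 248 bp from that of pll and is an internal one, while its first start lies past the end of pll. From summit positions alone, occupancy at pll and at TfIIA-L cannot be told apart.

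At Tak1 (chrX:20515908-20524928, minus strand), the kinase gene of the Imd pathway, no summit was found at the first exon. The 3 summits against the IgG control all lay in intron 6 of the long transcript Tak1-RA, which is 4101 bp long. They scored 12.1, 12.3 and 9.66 at 208, 1617 and 2424 bp upstream of the internal start of the short transcript Tak1-RB. Against input the sites, at most 2 bp apart, scored 18.7, 49.5 and 21.3, and 1 additional summit, of 10.3, was found in that intron. The start of Tak1-RA was 4256 bp from the nearest summit against the IgG control and 3759 bp from the nearest against input.

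At key (chr2R:24785514-24787411, minus strand), which encodes the regulatory subunit of the IKK complex, the summits were moderate to weak. The higher one lay in a coding exon 372 bp downstream of the start and scored 21.3 (rank 3794) against the IgG control and 39 (rank 4383) against input. The other, 186 bp upstream of the start, scored 5.76 against the IgG control and had no counterpart against input. It was the only one of the 25 summits that the lists did not share within 100 bp.

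At cact (chr2L:16313036-16326207, minus strand), which encodes the IκB-type inhibitor of the Toll pathway, the highest summit was at a promoter. It lay at chr2L:16326106, 5 bp upstream of the cact-RA start and 101 bp downstream of the cact-RE start, and scored 49.4 (rank 1801) against the IgG control and 114 (rank 1781) against input. A second summit, at chr2L:16315207, lay in intron 4, a stretch of 8101 bp, and was 10213 bp downstream of the nearest cact start and 4251 bp from any start. It scored 28.4 (rank 3049) against the IgG control but 23.4 (rank 6084) against input. The third, 963 bp upstream of the gene, scored 8.56 (22 against input) and was 101 bp inside the opposite-strand gene CG4278. The list against input held a further summit of 10.5, in a coding exon 435 bp downstream of the cact-RD start.

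The NF-κB genes Dif and Rel both had summits at their starts. At Dif (chr2L:17413248-17433161, minus strand), each of the 2 distinct starts had its own summit. The summit at chr2L:17428215 was 16 bp upstream of the start that Dif-RA, Dif-RB and Dif-RC share, and it scored 49.7 (rank 1794) against the IgG control and 92.2 (rank 2166) against input. Because Dif-RD begins further upstream, this promoter position is also inside the 12744 bp first intron of Dif-RD, and it was the only intronic summit of the gene. The summit 204 bp upstream of the Dif-RD start scored 35 against the IgG control and 78.1 against input. No other gene's start was nearer to either summit.

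At Rel (chr3R:9044183-9047977, minus strand), which is nested in an intron of Nmdmc, a folate-metabolism gene on the same strand, the highest score of all 10 genes was found. The summit at chr3R:9047584 scored 273 (rank 182) against the IgG control and 537 (rank 256) against input. It was 64 bp upstream of the Rel-RC start and within 500 bp of all 4 Rel starts, at distances of 64 to 393 bp. A second strong summit, at chr3R:9043886, lay 297 bp past the end of Rel and 3314 bp from its nearest start, and scored 122 (rank 596) against the IgG control and 326 (rank 530) against input. Rel thus had a strong summit at each end, and the downstream one was in an intron of Nmdmc and away from any start. The remaining summits scored 6.44 (11.7 against input) in a Rel coding exon and 32.3 (103 against input) at 29 bp upstream of an internal Nmdmc start, 703 bp upstream of Rel and inside the 5′ untranslated region of Mst85C. A further coding-exon summit of score 2.44 was present against input alone.

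Between the lists, 24 of the 25 summits against the IgG control had a summit against input within 100 bp, where 86.9% of all summits did. Of the 24, 20 were at the same base. Scores were higher against input for most shared summits of the whole list, with a median ratio of input to IgG score of 2.17 over 9513 pairs. At these genes the ratio ran from 0.53 at the coding-exon summit of imd to 4.04 at the middle intronic summit of Tak1. The intron 4 summit of cact (0.824) and that imd summit, 2 of 24, scored lower against input than against the IgG control, and ratios below that of cact were seen at 3.82% of all shared pairs. A ratio above that of the Tak1 site was seen at 6.03%. The standing of the strongest sites changed little: the highest summits of Rel, pll and tub stayed between the 94.8 and 98.3 percentile in both lists.

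**Figure D3:**
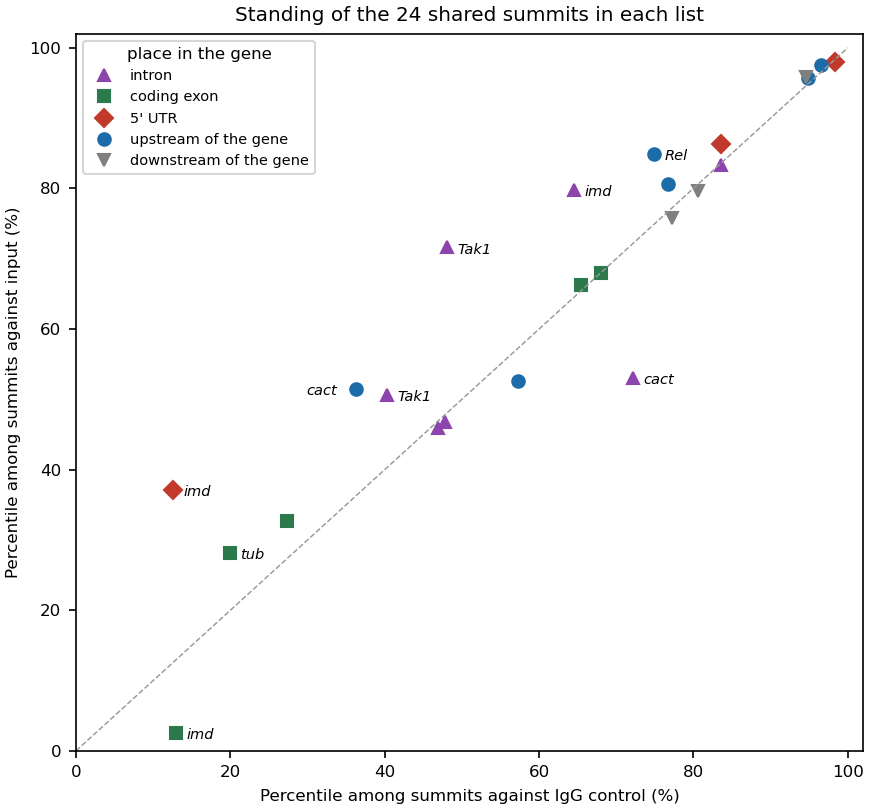
Percentile of each of the 24 shared summits among all summits against the IgG control (horizontal axis, %) and among all summits against input (vertical axis, %), with the symbol giving the place of the summit in its gene; the dashed line marks equal standing and names are given where the percentiles differ by more than 8. Start-proximal summits of Rel, pll and tub lie at the upper right end, and the cact intron 4 summit (72.2 and 53.1) and a Tak1 intronic summit (48.1 and 71.6) lie on opposite sides of the line.

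A start of some protein-coding gene lay within 500 bp of 17 of the 25 summits, where 49.7% of all summits against the IgG control had one that near. The other 8 were more than 500 bp from every annotated protein-coding start. Of these, 4 were in an intron of the gene they were assigned to: 1 in Tl, 1 in cact and 2 in Tak1. Their scores were 11.8 in Tl, 28.4 in cact and 12.3 and 9.66 in Tak1. The other intronic summits were at a start, either of the gene itself (Dif, and Tak1-RB at 208 bp) or of a neighbor (imd, at Dp1).

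A set of 6 motifs was searched on both strands in the 101 bp around each summit: GGTCACAC (the core of promoter motif 1), TATCGATA (the DNA replication-related element), CGATA (contained in the former, and a core bound by the insulator protein BEAF-32), GAGAG (bound by GAGA factor), GCTGAG and GCTGCG. GGTCACAC was present at 1 of the 25 summits, that of the tub start, where it begins at the summit base itself. Among all summits against the IgG control 2.25% held this motif, compared with 0.671% of windows 350 bp to either side and 4.68% of all protein-coding starts. GCTGCG was present at 2 of the 25 summits, in tub and imd, and at 12.3% of all summits, 5.15% of the flanking windows and 7.36% of starts. CGATA was present at 3 (pll, Dif and imd), GAGAG at 2 (Dif and imd), GCTGAG at 2 (cact and imd) and TATCGATA at 0. The shares among all summits were 12.9%, 14.9%, 5.25% and 0.731% in the same order, and those among starts were 23.6%, 12.7%, 4.56% and 4.48%. Those in the flanking windows were 13.7%, 10.8%, 3.53% and 0.749%, so CGATA and TATCGATA were no more frequent at summits than beside them. At 19 of the 25 summits none of the 6 motifs was in the window. These included all 4 Rel summits and all 4 distal sites in an intron of their assigned gene. A motif was thus present at 6 of 25 (24%), where 39.5% of all summits held at least 1. In the sequences shown above, the capitals therefore appear in the tub and Dif windows alone, and in Dif both motifs are on the strand opposite to the one printed. The CGATA of pll lies outside the 30 bases shown. The median GC content was 52.5% both at these summits and at all summits.

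The 10 genes were also set beside 69 further genes of the same pathways, grouped by role. Against the IgG control, 38 of the 69 (55.1%) had a summit, close to the 52.1% of all protein-coding genes. Core signaling components had one in 6 of 7 cases for Toll and 7 of 7 for Imd (6 of 7 each against input). Of these, dl, the gene of the NF-κB factor Dorsal, scored 244 (556 against input) at 52 bp upstream of its start, Myd88, the Toll adaptor, scored 101 (268) at 48 bp upstream and Pli, which encodes the Pelle interactor Pellino, scored 76.4 (176) at 7 bp from its start. The highest scores of krz, Gprk2 and Traf6 were 84.6, 42.9 and 19.7, and the secreted ligand gene wntD had no summit. The Gprk2 summit was 162 bp from its own start but 45 bp from that of PNPase.

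In the Imd core, Tab2, the gene of the Tak1 partner, scored 343 (818 against input), but this summit was past its end and 42 bp from the start of Acadvl. Likewise, the summit of 243 at Fadd, an adaptor gene, was 19 bp from the start of its neighbor pit. Uev1A, which encodes a ubiquitin-conjugating enzyme variant, scored 69 (146) at 151 bp from its own start. The highest scores against the IgG control of the caspase gene Dredd, the ubiquitin ligase gene Diap2, the kinase gene IKKbeta and the ubiquitin-conjugating enzyme gene ben were 16.9, 19.5, 18.9 and 4.59, and IKKbeta had no summit against input. The Dredd summit was nearest to a start of su(sable), 200 bp away, and that of Diap2 was equally near to a start of bug, at 160 bp.

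Among the antimicrobial effector genes, 2 of 14 had one in each list: CecC, with 107 (186 against input) at 57 bp upstream of its start, and its neighbor CecB, with 14 at 813 bp upstream. These genes are short, with a median length of 489 bp, and 27.5% of all genes in the shortest length class had a summit against the IgG control. Several of them, such as CecA1 and CecA2 or AttA and AttB, are close copies of each other, for which lists made from uniquely mapped reads are uncertain. Among Toll receptors other than Tl, 1 of 7 had a summit (Toll-9, at the start of Prim2). Of the peptidoglycan sensors and regulators of the Imd pathway 3 of 8 had one (4 of 8 against input), and of the extracellular Toll components 6 of 12 (7 of 12 against input). These shares were not tested against those of all genes. Imd inhibitors and modulators had one in 8 of 9 cases, among them akirin, a nuclear cofactor gene, with 115 (290) at 19 bp from its start, and all 5 genes of the JNK branch had one. Some of their highest summits were nearest to a neighbor's start, as at trbd (Unc-115a, 56 bp), POSH (UQCR-6.4, 317 bp) and bsk (chico, 159 bp). Median lengths were 3989 bp for the inhibitors, 11230 bp for the JNK branch, and 6680 and 3075 bp for the Toll and Imd cores. In those length classes 64.3% or 65.2% of all genes had a summit against the IgG control.

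**Figure D4:**
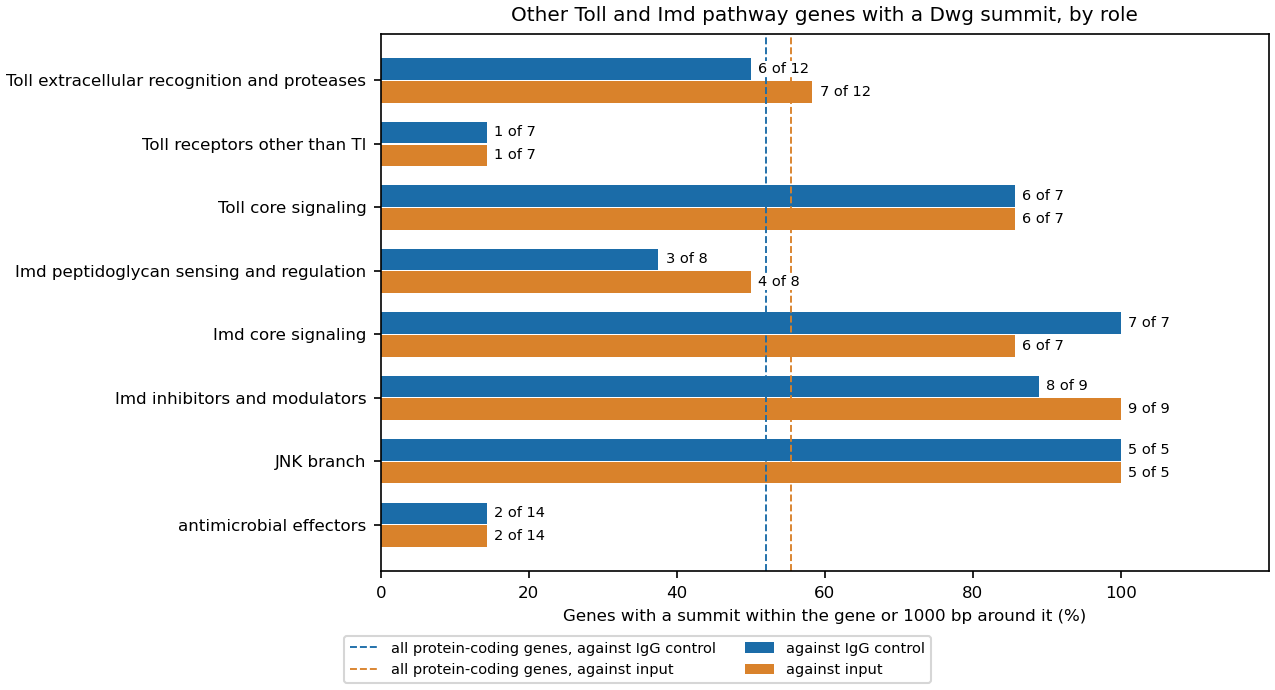
Share of genes with a Dwg summit inside the gene or at most 1000 bp from it (horizontal axis, %) for 69 other Toll and Imd pathway genes by role, with the count beside each bar; blue bars are against the IgG control, orange bars against input, and dashed lines give the share of all protein-coding genes, 52.1% and 55.5%. Core signaling, inhibitor and JNK branch genes lie above the lines in both lists, and the other Toll receptors and the antimicrobial effectors lie below them, at 14.3%. Imd peptidoglycan sensing and regulation genes also lie below, at 37.5% against the IgG control and 50% against input.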

How the data were processed

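The labels name 6 ChIP-seq libraries of S2R+ cells: Flag-Dwg ChIP, IgG control and input, 2 of each; the antibody label of the inputs names Dwg, and their titles were followed. According to the labels and methods, the authors used Trim Galore 0.6.4, Bowtie2 2.3.5.1 (dm6), SAMtools 1.6, keeping unique reads, MACS2 2.2.6 and HOMER 4.11. They deposited 1 summit list per background, scored by −log10 of the q-value, with a limit of q = 0.05. Whether replicates were pooled before calling is not given in the sources used here. Summit lists were used only to place and rank summits, in 1-based coordinates. Results are given first for the IgG background.

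Genes came from Ensembl release 115, without transposable elements, and sequence from NCBI's copy of the same assembly. Starts and introns are those of protein-coding transcripts; a tie in nearest start counted as the gene's own. Genes were split by length into 5 classes of about equal number. Of 70 listed pathway symbols 69 matched. The members, lists and motifs were chosen with earlier results of these data known, and no test was run. Named were all 10 genes, the neighbor with the nearest start, all core signaling genes and the 5 other pathway genes with the highest scores; any further gene was named in view of its values. The assignments were tested on simulated summits. Alternatives were score thresholds, windows around genes and starts, sharing distances and start sets. Python 3.11.15, NumPy 2.4.6 and matplotlib 3.10.9 were used.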

Additional observations from a re-analysis of the deposited data

How the results depend on the processing

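The lists give positions and scores without replicate values, so nothing here carries a replicate error. No paired analysis was possible because replicate values are not part of these summit lists, and leaving out a replicate was not possible for the same reason. Read depth limits which weak sites were listed, and it is unknown here. The genes with a summit were the same 9 against input, at score thresholds of 5 and 10 and in windows of 500 bp. At a threshold of 20, 7 remained, without Tl and Tak1. Without flanks 8 remained, since the pll summit is outside the gene, and within 2000 bp all 10 had a summit, PGRP-LC through the one at PGRP-LF. The number of summits was 14 at a threshold of 20 and 15 without flanks. Genes with an intronic summit numbered 3 at a threshold of 20. The median highest score was 92.2 against input, 49.7 at a threshold of 20, 22.5 without flanks and 57 within 2000 bp. At a threshold of 20, 24 of the other pathway genes had a summit. The other counts stayed within 1.5 times those reported; the number of summits, for example, was 28 against input, 18 at a threshold of 10 and 34 within 2000 bp, and genes with a summit near their own start numbered 6 at a threshold of 20.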

Other observations

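Names in this paragraph were chosen after their values were seen. The 3 pathway genes with the most summits were puc, kay and zfh1. Against the IgG control, puc, the gene of the phosphatase that restrains JNK signaling, held 14 summits (21 against input), kay, the gene of the Drosophila Fos protein, held 11 (15) and zfh1, a zinc finger and homeodomain factor gene, held 10 (14). Their highest scores against the IgG control were moderate, at 37.6 in puc, 61.5 in kay and 33.5 in zfh1, and each of these summits was in an intron. Those of puc and zfh1 lay 7136 bp and 8133 bp from the nearest start of their gene, and that of kay lay 59 bp from one. These genes are 16963, 28119 and 23277 bp long. Among all protein-coding genes, 1.52% held 7 or more summits against the IgG control and 2.28% against input. Other genes of the same roles held fewer against the IgG control: scny (7270 bp) 6, hep (11230 bp) 4, and Jra (2077 bp) and akirin (3869 bp) 1 each. The inhibitor gene dnr1 (29813 bp), longer than puc, kay and zfh1, held only 2 in each list. CYLD (3989 bp) held 0, but 1 against input. Beyond the 1000 bp around key, a summit of score 487 against the IgG control (1184.3 against input) lay 3.886 kb downstream of the 5′ end of that gene and was not assigned to it.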
